A study of Mus musculus with 231 samples.

Results

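The miR-106b, miR-93 and miR-25 cluster gives 6 mature miRNAs, mmu-miR-106b-5p, mmu-miR-106b-3p, mmu-miR-93-5p, mmu-miR-93-3p, mmu-miR-25-3p and mmu-miR-25-5p. They were 6 of the 1863 mature miRNAs in the training counts, 6 of 1895 in the normalised training table and 6 of 1817 in the validation table. The cluster was selected on measured values of these same mice, because miR-106b-3p was higher in CM than in Ctrl mice at several training months. Its CM against Ctrl values after month 0 are therefore given as a description, without a p-value, and support nothing by themselves. Where members are counted as called by edgeR or limma at training months 1 to 6 (adjusted p under 0.05), the count describes the contrast that chose the cluster and is no test of it. Results to be read as tests are those for month 0, for time within Ctrl mice, for the balance between the arms of a hairpin in those same samples, and for the second cohort.

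To follow blood miRNAs while leukemia developed, small RNA of peripheral blood mononuclear cells (PBMC) was sequenced in mice on the C57BL/6 background. CM mice carried a conditional knock-in of Cbfb-MYH11, the fusion gene of acute myeloid leukemia with inversion of chromosome 16, together with Mx1-Cre. Mx1-Cre is switched on by interferon and acts in blood-forming cells and in other tissues as well. CM mice and littermate Ctrl mice were both given 7 doses of poly(I:C) at 14 mg per kg, at 6 to 8 weeks of age, so the injections were shared by both arms. All CM mice carried the genotype code CHW. Ctrl mice of the training cohort were CW (4 mice), HW (2 mice) or WT (1 mouse), and the labels do not explain these codes. The training cohort held 7 CM mice (4 female, 3 male; 53 libraries) and 7 Ctrl mice (2 female, 5 male; 76 libraries), drawn before induction (month 0) and through month 10. By its labels, a validation cohort had 60 libraries from 10 CM mice (5 female, 5 male) and 42 from 6 Ctrl mice (3 female, 3 male). Its Ctrl mice were CW (3 mice), HW (2 mice) or WT (1 mouse). The text of the series counts 1 CM mouse fewer and 1 Ctrl mouse more, so that the arm of 1 validation mouse is in doubt, and the labels were followed.

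miRNA genes are transcribed as long precursors, from which hairpins are cut in the nucleus and trimmed in the cytoplasm to a duplex of a 5p and a 3p arm. One arm is usually loaded into an Argonaute protein, while the other, the passenger arm, is mostly degraded. The loaded arm finds its target mRNAs through its seed, the bases near its 5′ end. The cluster lies inside Mcm7, which encodes a subunit of the helicase that opens DNA for replication, and is transcribed along with it. It is a paralog of the miR-17-92 and miR-106a-363 clusters. Its main arms are known to repress cell-cycle inhibitors such as p21, the pro-apoptotic protein Bim and parts of the TGF-beta pathway, and the cluster is active in proliferating blood progenitors.

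The mature sequences are shown because the seed separates the arms into groups. They were taken from RefSeq (GRCm38.p6), are written 5′ to 3′, and carry the seed (bases 2 to 8) in capitals.
mmu-miR-106b-5p: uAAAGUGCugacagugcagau
mmu-miR-93-5p: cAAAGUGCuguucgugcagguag
mmu-miR-17-5p: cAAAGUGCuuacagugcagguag
mmu-miR-25-3p: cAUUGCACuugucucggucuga
mmu-miR-92a-3p: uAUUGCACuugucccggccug
mmu-miR-106b-3p: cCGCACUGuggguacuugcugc
mmu-miR-93-3p: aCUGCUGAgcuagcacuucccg
mmu-miR-25-5p: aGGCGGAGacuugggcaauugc
miR-106b-5p and miR-93-5p shared the seed AAAGUGC with each other and with 5 further miRNAs of 1679 mature entries, among them miR-17-5p of the miR-17-92 cluster. miR-25-3p shared AUUGCAC with 5 others, among them miR-92a-3p. No other entry carried the seed of miR-106b-3p, miR-93-3p or miR-25-5p. The closest counted miRNA differed from a member by 3 to 8 edits, so no other counted miRNA lay within 2 edits of any of the 6.

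The hairpins are shown because the balance of their arms is compared in later paragraphs. Capitals mark the 5p arm and then the 3p arm.
Mir106b: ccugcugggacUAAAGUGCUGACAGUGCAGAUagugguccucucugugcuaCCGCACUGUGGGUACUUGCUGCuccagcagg
Mir93: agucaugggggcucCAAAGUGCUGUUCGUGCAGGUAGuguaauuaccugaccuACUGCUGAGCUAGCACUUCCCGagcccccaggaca
Mir25: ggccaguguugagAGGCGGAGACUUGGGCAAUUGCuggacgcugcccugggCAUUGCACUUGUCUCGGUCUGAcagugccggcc
In GRCm38.p6, all 3 lie on the minus strand of chromosome 5, Mir106b at chr5:138165737-138165818, Mir93 at chr5:138165523-138165610 and Mir25 at chr5:138165321-138165404. The cluster spans 498 bases, with Mir106b first in the direction of transcription and Mir25 last. In the mm9 annotation, which the study's methods name, the same sequences lie inside Mcm7 (chr5:138605811-138613650). There all 3 fall in intron 13 of 1 Mcm7 transcript, an intron of 748 bases, and an exon of another transcript overlaps Mir93 and Mir25.

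Training libraries held 1792809 to 7958411 counts, so that even the rarest member, mmu-miR-25-5p, had a median of 130 counts per library. In the validation cohort, the 12 libraries of point 5 held 1645456 to 5445215 reads, whereas the other 90 held 1744 to 76906, and only point 5 was fitted across all miRNAs. Lists of miRNAs known from erythroid cells (7), mature lymphocytes (2), myeloid cells (2) and progenitors and platelets (2) were summed in each library to check the label, and all of their members were detected. Lymphocyte miRNAs summed to between 29277 and 68683 CPM (counts scaled by library size) in the CM libraries of month 0, and to between 35253 and 66886 CPM in the Ctrl libraries. Erythroid miRNAs summed to 31204 CPM or more in every month 0 library, so red cell RNA was present throughout. In such bulk samples, fewer cells of a type and less RNA per cell cannot be told apart. At month 1 the libraries of CM mice 3336 and 3368 stood apart, with summed erythroid levels of 622569 and 423424 CPM against 53405 to 90962 CPM in the other 5 CM mice and 28313 to 69679 CPM in Ctrl mice. The serial numbers in the titles of CM mouse 3334 and Ctrl mouse 3335 change places at month 6, so results are also given without these mice where they differ.

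The main arms were abundant, as was miR-106b-3p, whereas miR-93-3p and miR-25-5p were low (CPM from the training counts, with TMM scaling). Over all training libraries, mmu-miR-93-5p had the highest mean of the cluster, 10601 CPM, and ranked 23rd of the 1863 miRNAs. It was followed by mmu-miR-25-3p at 3692 CPM (rank 44), mmu-miR-106b-5p at 1617 CPM (rank 73) and mmu-miR-106b-3p at 753 CPM (rank 83). mmu-miR-93-3p, at 77.05 CPM, and mmu-miR-25-5p, at 35.6 CPM, ranked 189 and 237. miR-93-5p thus made up 63.2% of the cluster's CPM and miR-25-3p 22.0%, while miR-106b-3p made up 4.49%. Averaged over each mouse's own libraries, miR-106b-3p was 937 ± 269 CPM in CM mice (SD, n = 7, range 712 to 1439) and 604 ± 100.5 CPM in Ctrl mice (n = 7, range 439 to 737). The mouse means of miR-106b-5p, from the same hairpin, were 1467 ± 196 CPM in the CM arm and 1697 ± 41.6 CPM in the Ctrl arm. CM mice contributed fewer late libraries than Ctrl mice, so these means cover different months.

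Before induction, none of the 6 members passed the test between the arms. mmu-miR-106b-3p was 326.6, 382.2, 415.7, 421.8, 445.1, 498.5 and 520.7 CPM in CM mice and 260.9, 288.2, 316.2, 319.8, 382.8, 390.1 and 615.8 CPM in Ctrl mice. The groups overlapped, and the highest and the lowest value were both from Ctrl mice. CM over Ctrl, this was 0.19 ± 0.19 (log2 fold change ± SE; quasi-likelihood test of edgeR, adjusted p = 0.709). mmu-miR-25-5p had the largest difference of the cluster, -0.81 ± 0.34 (adjusted p = 0.324), with 20.9 to 45.2 CPM (median 24.4) in CM mice, and 21.5 to 100.7 CPM (median 30.9) in the Ctrl arm. The values of mmu-miR-106b-5p (0.09 ± 0.18), mmu-miR-93-5p (0.15 ± 0.12), mmu-miR-93-3p (-0.02 ± 0.14) and mmu-miR-25-3p (-0.12 ± 0.26) had adjusted p-values between 0.618 and 0.972. Of all 478 miRNAs tested at this month, 0.209% passed an adjusted p of 0.05.

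**Figure D1:**
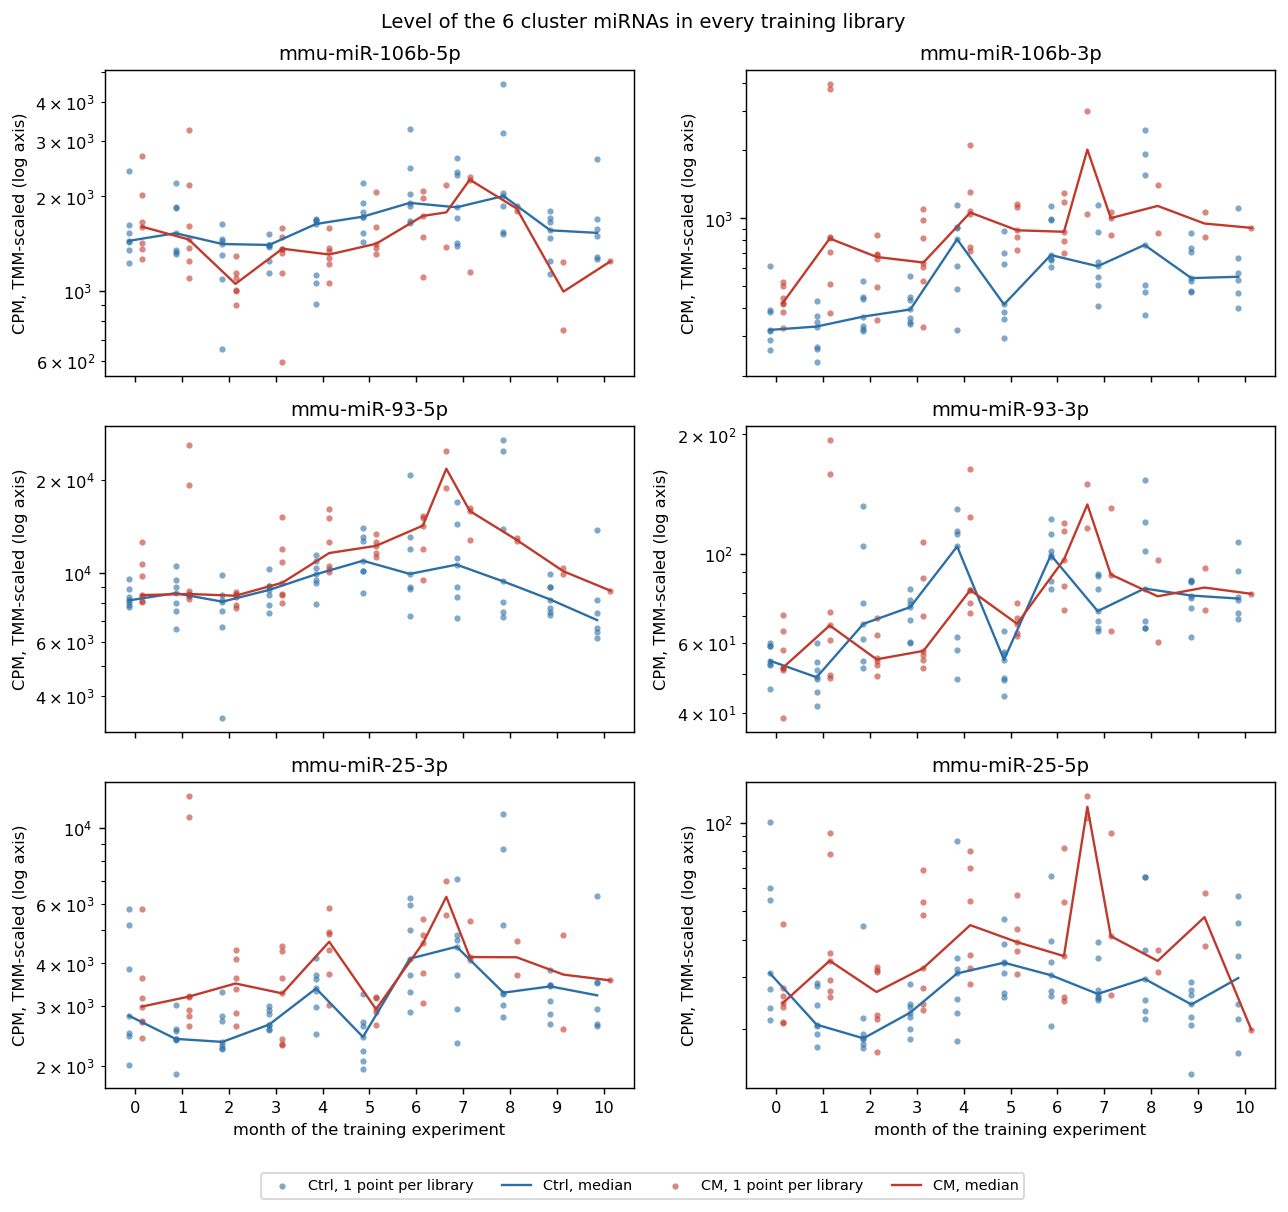
Level of each member in every training library (CPM from the counts, log axis) against month, with Ctrl in blue and CM in red; each point is 1 library and lines join the medians. The CM median of miR-106b-3p lies above the Ctrl median at each month from 0 to 10, whereas that of miR-106b-5p lies below it at months 1 to 6.

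At month 1, mmu-miR-106b-3p was 380.02, 510.4, 709.8, 813.7, 824.3, 3759 and 3927 CPM in CM mice, and 229.9 to 428.1 CPM (median 331.1) in Ctrl mice. Thus 6 of 7 CM mice were above every Ctrl mouse, and the pair of very high values were from mice 3336 and 3368. Of 324 miRNAs at a mean of 10 CPM or more, 4.01% had every CM mouse above every Ctrl mouse. For 2.16% of them every CM mouse was below. The log2 fold change of miR-106b-3p was 2.26 ± 0.52, in a contrast that chose the cluster. By edgeR, 4 of the 6 members were called at this month, where 27.5% of all miRNAs were: besides miR-106b-3p these were mmu-miR-25-3p (1.11 ± 0.37), mmu-miR-25-5p (0.99 ± 0.30) and mmu-miR-93-3p (0.86 ± 0.30). The values of mmu-miR-93-5p (0.52 ± 0.27) and mmu-miR-106b-5p (0.06 ± 0.23) were not called.

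Mice 3336 and 3368, whose erythroid miRNAs stood apart at month 1, were also the highest CM mice for every member. mmu-miR-25-3p was 12384 and 10789 CPM in them and 2619 to 3203 CPM in the other 5 CM mice, where Ctrl mice ranged from 1890 to 3030 CPM. mmu-miR-93-5p was 25941 and 19337 CPM in them against 8258 to 8771 CPM in the other CM mice, within the Ctrl range of 6603 to 10523 CPM. Without these mice, the log2 fold change of mmu-miR-106b-3p was 1.05 ± 0.22, and those of miR-25-3p, mmu-miR-25-5p and mmu-miR-93-3p were 0.30, 0.45 and 0.29. All 7 erythroid miRNAs passed as higher in CM mice at month 1 with every library, for example miR-144-5p (2.94 ± 0.63) and miR-451a (1.90 ± 0.62), the red cell miRNAs of a shared precursor. miR-126a-3p and miR-126a-5p, of progenitors, platelets and endothelium, summed to 362 to 716 CPM in the CM arm against 133.8 to 196 CPM in the Ctrl arm, without overlap. These are the whole progenitor and platelet list, and the study reports that the fusion gene itself raises miR-126. Between CM and Ctrl mice, here and below, that sum therefore does not measure cell makeup alone. The part of cell makeup in the difference of miR-106b-3p was not tested. The titles also carry a G number, which the labels do not explain. With it as a covariate no member was called, and miR-106b-3p was 1.38 ± 0.57. Within G numbers that held both arms, the log2 ratio of CM over Ctrl means of miR-106b-3p was 3.57 in G3 (1 CM, 1 Ctrl), 1.26 in G5 (2 CM, 3 Ctrl) and -0.07 in G6 (1 CM, 2 Ctrl). Before induction, at month 0, this ratio was 0.79 in G2, 0.72 in G3 and 0.19 in G4 (1 CM and 1 Ctrl each). It was -0.15 in G5 (1 CM, 2 Ctrl) at month 0. When all training libraries were fitted together with the G number, miR-106b-3p was 2.17 ± 0.35. That fit had no term for the mouse, so its SE treats repeated libraries of 1 mouse as independent.

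At month 2, mmu-miR-106b-3p was 353.1, 495.8, 658.5, 689.4, 695.3 and 841.5 CPM in 6 CM mice, and 315.8 to 526.3 CPM (median 366.8) in Ctrl mice. Only 4 of these 6 CM mice were above every Ctrl mouse. Of 329 miRNAs at a mean of 10 CPM or more, 4.26% had every CM mouse above every Ctrl mouse and 3.95% every CM mouse below. The log2 fold change of miR-106b-3p was 0.65 ± 0.20, and it was the 1 member called, where 13.5% of all miRNAs were (26.6% without Ctrl mouse 3349). It was called in only 1 of the 10 other settings tried, and its log2 ratio was 1.41 within G3 (1 CM, 1 Ctrl) and 0.38 within G7 (1 CM, 2 Ctrl). mmu-miR-25-3p (0.44 ± 0.16) and mmu-miR-93-3p (-0.46 ± 0.23) pointed in opposite directions and were not called. At month 2 the summed progenitor and platelet level was 261 to 742 CPM in CM and 35.8 to 178 CPM in Ctrl mice, without overlap, and the median erythroid sums were 35092 and 21426 CPM. At month 3, miR-106b-3p was 330.9, 526.5, 606.8, 636.6, 819.7, 979.6 and 1097 CPM in CM mice and 339.8 to 553.9 CPM (median 394.1) in Ctrl mice. Here 5 CM mice were above every Ctrl mouse, but mouse 3336, the second highest at month 1, was below all of them. Of 322 miRNAs at a mean of 10 CPM or more, 2.48% had every CM mouse above every Ctrl mouse and 3.73% every CM mouse below. miR-106b-3p (0.84 ± 0.23) and mmu-miR-25-5p (0.85 ± 0.24) were the 2 members called at month 3, where 22.0% of all miRNAs were. miR-25-5p was 23.1 to 68.9 CPM (median 32.1) in CM mice, and 18.4 to 28.3 CPM (median 22.7) in the Ctrl arm. The progenitor and platelet sum again did not overlap at month 3, at 204 to 2403 CPM in CM and 134.4 to 182 CPM in Ctrl mice, and the median lymphocyte sums were 47265 and 64152 CPM. Median erythroid sums were 61325 and 51566 CPM, and 6 of the 7 erythroid miRNAs passed as higher. Median myeloid sums in CM and Ctrl mice were 8109 and 5038 CPM at month 3 and 10368 and 7374 CPM at month 2. At month 1 they were 5991 and 6681 CPM, in the other direction. The part of cell makeup in the values of months 2 and 3 was not tested. At this month the G number and the arm nearly coincided, since 6 of 7 CM libraries had a G number that no Ctrl library had, and 6 of 7 Ctrl libraries one that no CM library had. Arm and G number cannot be told apart there except within G3 (1 CM, 1 Ctrl), where the log2 ratio was 0.54 for miR-106b-3p and 1.15 for miR-25-5p. With the G number as a covariate at month 3, miR-106b-3p and miR-25-5p had lost their call, at 0.76 ± 0.68 and 1.37 ± 0.65. With all training libraries and the G number in 1 fit, again without a mouse term, they were 0.68 ± 0.37 and 0.62 ± 0.34.

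From month 4 on no member was called with all mice in the fit. mmu-miR-106b-3p was 714 to 2116 CPM (median 1061) in 6 CM mice, and 319 to 1140 CPM (median 807) in 7 Ctrl mice at month 4, a log2 fold change of 0.71 ± 0.33, and 0.837% of all miRNAs passed there. At month 5 its fold change was 0.89 ± 0.27, from 722 to 1154 CPM in 5 CM mice and 295 to 880 CPM in Ctrl mice, and at month 6 it was 0.22 ± 0.23. Without mice 3334 and 3335, it was 1.10 ± 0.26 at month 5. Over the 11 other settings tried at month 6, which include leaving out both mice, it was 0.19 to 0.87 and never called. At months 5 and 6, with 5 CM mice remaining, 0% of all miRNAs passed by edgeR, and 21.6% and 6.98% had an unadjusted p under 0.05 (DESeq2 called 18 and 0 miRNAs). By contrast mmu-miR-106b-5p, cut from the same hairpin, was slightly lower in CM mice at each of months 4 to 6, with values of -0.05 ± 0.21, -0.14 ± 0.15 and -0.37 ± 0.22 that were not called. After month 6 there were 1 to 3 CM libraries per month and no fit was made. In these, miR-106b-3p averaged 969 CPM (3 CM) against 676 CPM (7 Ctrl) at month 7, 1135 (2 CM) against 1152 at month 8 and 948 (2 CM) against 618 at month 9. The plot of fold changes by month shows miR-106b-3p above zero throughout and miR-106b-5p below zero from month 2.

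**Figure D2:**
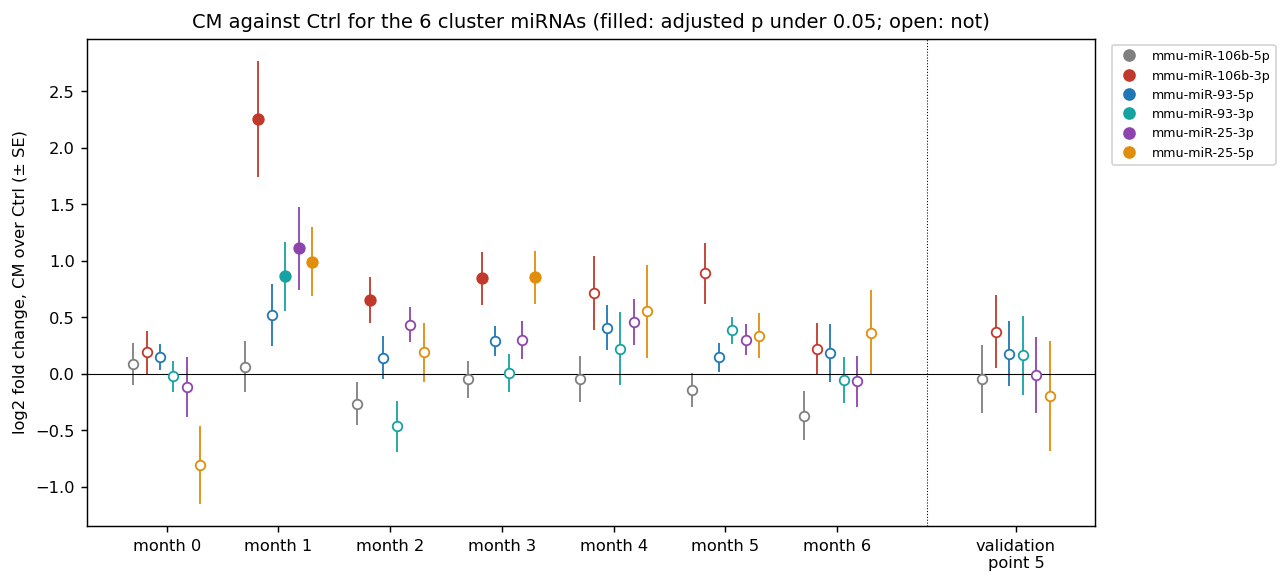
Log2 fold change of CM over Ctrl (± SE) for the 6 members at training months 0 to 6 (edgeR) and validation point 5 (limma), with filled points for an adjusted p under 0.05. miR-106b-3p is filled at months 1, 2 and 3, and none is filled at month 0, after month 3 or at the validation point.

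The last library of each CM mouse was compared with its own month 0 library. mmu-miR-106b-3p was higher in all 7 mice, rising from a median of 422 to 907 CPM (median log2 change 1.10, range 0.49 to 1.496). mmu-miR-93-3p was also higher in 7 of 7 mice (median 0.99), mmu-miR-93-5p and mmu-miR-25-5p in 6 of 7 (0.63 and 1.58) and mmu-miR-25-3p in 5 of 7 (0.60). mmu-miR-106b-5p was lower in 7 of 7 (median -0.42). Across the 331 miRNAs at a mean of 10 CPM or more, 10.9% were higher in every CM mouse and 17.8% lower in every CM mouse. Mouse 3368, followed to month 10, was the 1 mouse in which miR-93-5p (-0.29) and miR-25-5p (-1.19) were lower at the end. Since the last library came at month 4 in some mice and month 10 in others, time and stage are mixed in this comparison.

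In Ctrl mice alone, a contrast that the rule did not use, the 3p arm of miR-106b and that of miR-93 rose between months 0 and 9. mmu-miR-106b-3p went from 382.8 to 524.5, 260.9 to 739.6, 319.8 to 471.2, 615.8 to 862.0, 316.2 to 474.9, 288.2 to 709.8 and 390.1 to 543.0 CPM in the 7 mice. It was higher at month 9 in every mouse, by 0.82 ± 0.21 on the log2 scale (adjusted p = 0.00672 by edgeR). mmu-miR-93-3p went from a mean of 54.7 CPM at month 0 (highest 59.9) to a range of 61.98 to 85.96 CPM at month 9 (0.60 ± 0.12, adjusted p = 0.00173 by edgeR). Neither the main arm of miR-93 (mmu-miR-93-5p, 0.08 ± 0.10, adjusted p = 0.565) nor mmu-miR-106b-5p (0.02 ± 0.16, adjusted p = 0.956) passed. mmu-miR-25-5p was -0.90 ± 0.34 (adjusted p = 0.0520), from a month 0 range of 21.5 to 100.7 CPM, and mmu-miR-25-3p was -0.04 ± 0.23 (adjusted p = 0.924). miR-25-5p passed as lower by DESeq2 (adjusted p = 0.0166) and by edgeR on reads recovered from the normalised table (adjusted p = 0.0262), and without Ctrl mouse 3339 or 3349 (0.0490 and 0.0421), so that 3 members passed there, and its adjusted p over all alternatives ran from 0.0166 to 0.138. The 2 members that passed stand against 35.9% of all 482 miRNAs passing in this comparison. The lymphocyte miRNAs miR-150-5p (-1.07 ± 0.26) and miR-342-3p (-1.58 ± 0.32) and the myeloid miR-223-3p (-1.27 ± 0.18) passed as lower, and no erythroid miRNA passed. Their part in the change was not tested, and age and time since poly(I:C) cannot be told apart. The G numbers of the Ctrl libraries also differed between the months. At month 0, 2 libraries were of G1 and 0 of G7, and at month 9, 0 were of G1 and 2 of G7. The G number was not used as a covariate in this comparison, and its part was not tested.

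The balance between the arms of a hairpin was measured as log2(3p count / 5p count), after adding 0.5 to each count. A scaling factor common to a library drops out of this ratio. On average it was -2.12 for miR-106b, -7.26 for miR-93 and 6.38 for miR-25 in Ctrl mice at month 0, so the 5p arm prevailed in miR-106b and miR-93 and the 3p arm in miR-25. In Ctrl mice the mean log-ratio was higher at month 9 than at month 0 for all 3 hairpins, by 0.81 for miR-106b, 0.52 for miR-93 and 0.77 for miR-25. The difference was in the same direction in 7 of 7 mice for each hairpin (exact two-sided sign-flip permutation test, p = 0.0156, the smallest that 7 pairs can give). Of all hairpins with a mean count of 10 or more for each arm, 7.87% (10) were higher and 12.6% (16) lower in every mouse, and the median shift was -0.05. After adjustment over these hairpins none passed, and the adjusted permutation p of all 3 was 0.0763. For miR-25 the ratio ran from 5.69 to 6.82 at month 0 and from 6.77 to 7.56 at month 9. For miR-93 it ran from -7.60 to -7.05 at month 0 and from -6.997 to -6.41 at month 9.

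At month 0 the arm balance of miR-25 was compared between CM and Ctrl mice. The log-ratio was 6.76, 6.77, 6.83, 6.84, 6.94, 6.995 and 7.41 in CM mice and 5.69, 6.14, 6.42, 6.504, 6.51, 6.58 and 6.82 in Ctrl mice. Of the CM mice, 5 of 7 were above every Ctrl mouse, and the mean difference was 0.56 (exact two-sided permutation test, p = 0.00175). This did not pass after adjustment over all such hairpins (adjusted p = 0.111), of which 15.7% had an unadjusted p under 0.05 and 0 passed. These libraries precede poly(I:C). Within the 4 G numbers that held both arms at month 0, the CM mean was above the Ctrl mean in each, by 0.34, 0.33, 0.64 and 0.86 from 1 CM and 1 or 2 Ctrl libraries. The differences for miR-106b (0.15, exact permutation p = 0.562) and miR-93 (-0.16, exact permutation p = 0.133) did not pass either. After month 0 the difference for miR-25 ranged from -0.91 to 0.19 over months 1 to 9, and was negative at all of them but month 2. For miR-106b, which the rule concerns, the CM minus Ctrl difference was 1.71, 0.85, 0.87, 0.73, 1.12 and 0.58 at months 1 to 6 and 0.66, 0.56 and 1.27 at months 7 to 9. The 3p arm exceeded the 5p arm, a log-ratio above 0, in some CM libraries. At month 1 these were only mice 3336 (0.21) and 3368 (0.85), whose erythroid miRNAs stood apart. The other CM libraries of that month ran from -1.94 to -0.41, and the highest Ctrl value was -1.64. At month 4 the highest CM value was 0.66, and the highest Ctrl value, 0.02, was also above 0.

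**Figure D3:**
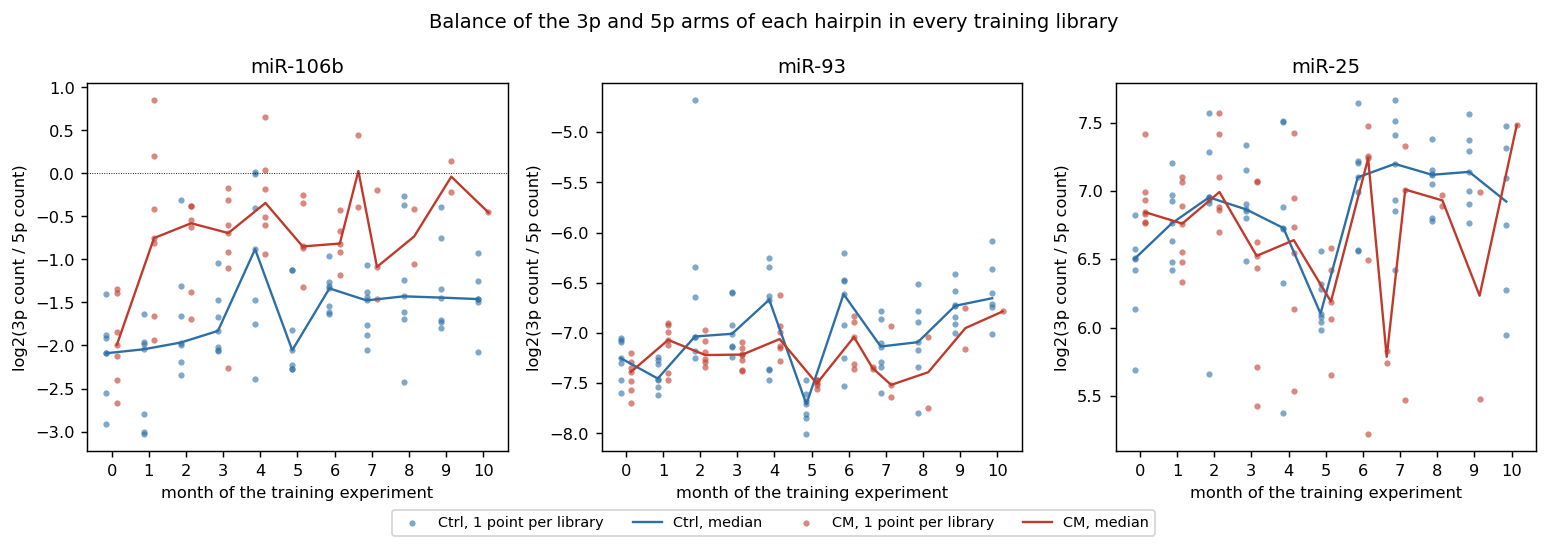
Log2 of 3p over 5p counts for each hairpin in every training library against month, with Ctrl in blue and CM in red; points are libraries, lines join medians and the dotted line marks equal arms. For miR-106b the CM mean exceeds the Ctrl mean at months 1 to 9, by 0.56 to 1.71.

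Among all training libraries, members from the same hairpin did not always vary together. After the mean of each arm and month was removed, Pearson's r of log2 CPM between mmu-miR-106b-3p and mmu-miR-106b-5p was 0.32 over the training libraries, whereas that between miR-106b-3p and mmu-miR-25-3p was 0.81. miR-106b-5p had r of 0.65 with miR-25-3p and 0.58 with mmu-miR-93-5p, and 0.03 with mmu-miR-25-5p, the lowest of the 15 pairs. These values describe libraries of 14 mice that share animals, depth and cell makeup. Of 331 miRNAs, those most like miR-106b-3p were miR-25-3p (0.81), miR-486b-5p (0.80), miR-331-5p (0.78), miR-30a-3p (0.78) and miR-486a-5p (0.78). The miR-486 copies are red cell miRNAs of almost the same sequence, and how their reads were divided is uncertain. miR-25-3p was most like miR-106b-3p (0.81), miR-144-5p (0.81) and miR-486a-5p (0.79), and miR-93-5p was most like miR-421-3p (0.77), miR-3074-1-3p (0.74) and miR-186-5p (0.74). With the summed erythroid level, r was 0.74 for miR-25-3p, 0.68 for miR-106b-5p, 0.64 for miR-106b-3p, 0.46 for miR-93-5p, 0.35 for miR-25-5p and 0.26 for mmu-miR-93-3p. With the lymphocyte sum, r was -0.40 for miR-106b-3p and 0.09 for miR-106b-5p. The arms of miR-106b therefore both varied with the erythroid level, and they differed in their relation to the lymphocyte level.

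**Figure D4:**
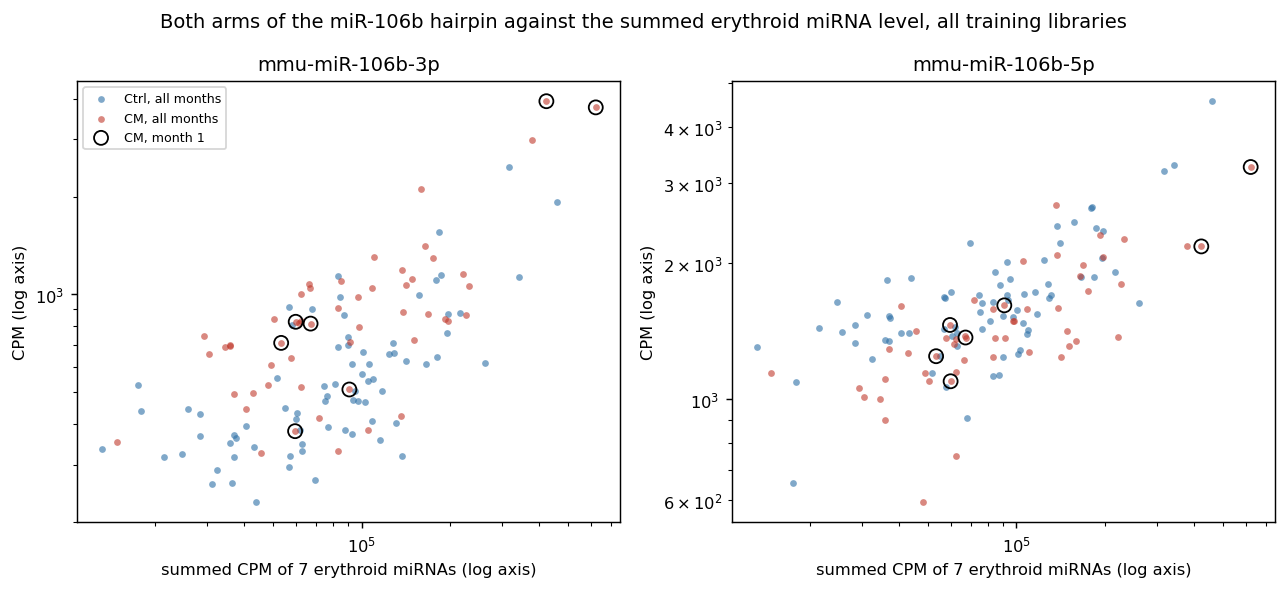
CPM of miR-106b-3p (left) and miR-106b-5p (right) against the summed CPM of 7 erythroid miRNAs in all training libraries, log axes, Ctrl in blue, CM in red, with CM month 1 libraries circled. Both rise with the erythroid sum (r = 0.64 and 0.68 after the mean of each arm and month was removed), and the pair of circled points at the right are mice 3336 and 3368.

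For mmu-miR-93-3p the deposited tables disagreed. Its counts summed to 42801 over the training libraries, whereas whole reads recovered from the normalised table summed to 13352. Its share of a library in the normalised table was a median of 0.360 times that in the counts (range 0.158 to 0.730), and r of log2 between the tables was 0.68. For the other 5 members the median ratio was 0.811 to 1.04 and r was 0.997 or more. In the normalised table miR-93-3p was lower in CM mice at month 2 (-0.81 ± 0.24, limma) and month 3 (-0.63 ± 0.17), and it was called at both, while from the counts it was -0.46 and 0.01 and was not called. At month 1 it was called from the counts only, at 0.86 against 0.19 in the normalised table. The rise of miR-93-3p in Ctrl mice from month 0 to 9 passed in both tables. The calls of miR-93-3p at months 1 to 3 therefore depended on the table, and so did its direction at month 4 (0.22 and -0.10). At month 3 the value from the counts had no stable direction. It took the other sign in 14 of 24 alternatives, the normalised table among them.

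**Figure D5:**
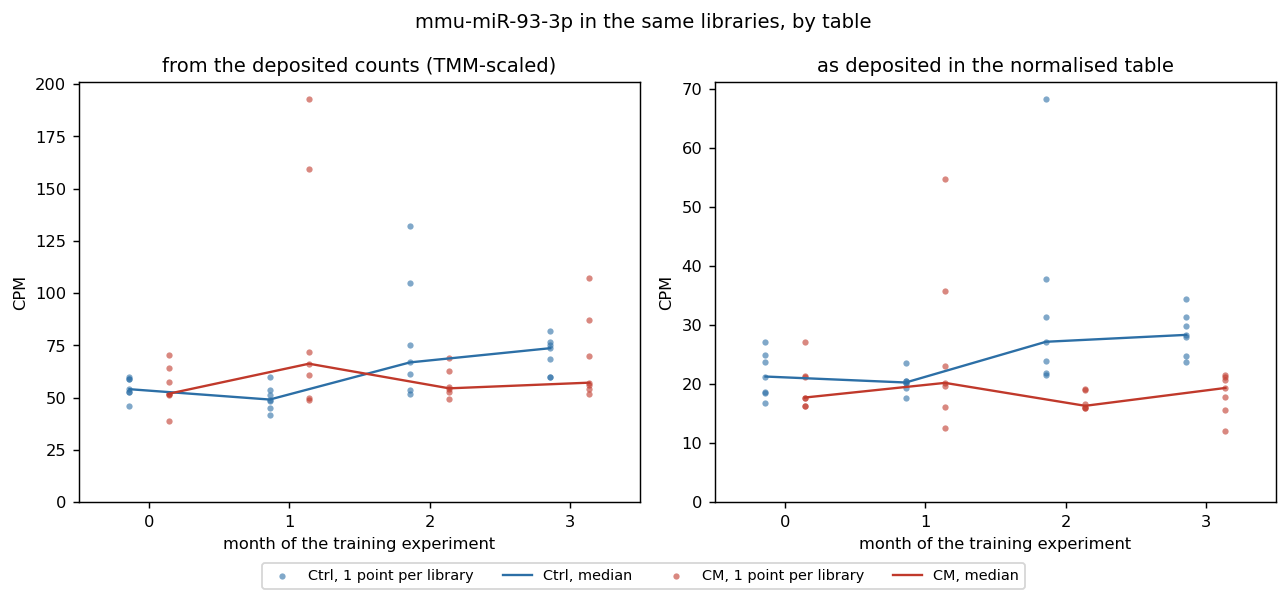
miR-93-3p at months 0 to 3 from the deposited counts (left) and as deposited in the normalised table (right), in CPM, with Ctrl in blue and CM in red; points are libraries and lines join medians. At month 3 the CM median is below the Ctrl median in both tables, and the difference was called in the normalised table only.

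In the validation cohort at point 5, none of the 6 members passed, and 0% of 930 miRNAs passed by limma, with 54 at an unadjusted p under 0.05 (edgeR on the recovered reads also called 0). Point 5 held 6 of the 10 CM mice and all 6 Ctrl mice. CM mice 2690, 2708, 2719 and 2731 had no point 5 library and had a point L library. In the training cohort the calls of members were at months 1 to 3, and 0% of all miRNAs passed at months 5 and 6. The reads recovered for mmu-miR-106b-3p were 12153 in 6 CM libraries and 10950 in 6 Ctrl libraries. Deposited normalised values of miR-106b-3p ran from 3985 to 10319 (median 5717) in CM mice and 2612 to 7428 (median 4762) in Ctrl mice, on a scale whose columns have no common total, and the groups overlapped. Its log2 fold change, after adding 1, was 0.37 ± 0.32 (limma, adjusted p = 0.941). mmu-miR-106b-5p was -0.04 ± 0.30, and mmu-miR-93-5p, mmu-miR-93-3p, mmu-miR-25-3p and mmu-miR-25-5p were 0.18 ± 0.29, 0.16 ± 0.35, -0.01 ± 0.33 and -0.20 ± 0.49, with adjusted p-values between 0.979 and 0.999. The difference in arm balance was 0.42 for miR-106b (exact permutation p = 0.340), -0.01 for miR-93 and 0.19 for miR-25. The summed progenitor and platelet level ran from 1824 to 69275 in CM and 1339 to 3426 in Ctrl libraries, so at least 1 CM library was far above the Ctrl range in that sum.

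The paralogous clusters, listed for comparison, had no member that passed as higher in CM mice at months 0 to 6. At those months 0.209%, 27.5%, 13.5%, 22.0%, 0.837%, 0% and 0% of all miRNAs passed in either direction. The absence of calls at months 0 and 4 to 6 therefore says little about these clusters. In the miR-17-92 cluster, which shares both seeds, 11 of 12 miRNAs were tested, and miR-19b-1-5p passed as lower at month 1 (-1.28 ± 0.27) and month 2 (-1.14 ± 0.32). In the miR-106a-363 cluster, 5 or 6 of 10 were tested, and miR-18b-5p passed as lower at month 1 (-0.72 ± 0.18) and month 3 (-0.62 ± 0.17). The median log2 fold change at month 1 was -0.06 in the miR-17-92 and -0.21 in the miR-106a-363 cluster, where the median over all miRNAs was -0.10. At month 4 the medians were 0.41 and -0.18, against 0.05 over all miRNAs. In Ctrl mice from month 0 to month 9, the miR-106a-363 cluster had 0 higher and 4 lower of 6 tested, among them miR-20b-5p (-0.80 ± 0.13), with a median of -0.61 against 0.09 over all miRNAs. In the miR-17-92 cluster 3 were higher and 2 lower of 11. Of all miRNAs, 35.9% passed in either direction in this comparison.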

How the data were processed

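PBMC small RNA was measured in all samples listed by the labels, and arm, mouse, sex, time and G number were read from those labels. Per the study's methods, the authors trimmed adapters with cutadapt, aligned with Bowtie to mm9 and counted mature miRNAs of miRBase, while the submitters' processing notes list cutadapt, Bowtie, SAMtools, edgeR and GRCm38, so the build is not settled. The deposited training table held raw counts per mature miRNA, whose labelling names mirTOP, with settings not given in the sources used here. The other deposited tables held values that the authors divided by TMM-scaled library sizes, and these were treated as a normalised signal. Of their training values and of the deeper validation values, 100% were whole multiples of 1 read within 0.01 of a read, and reads were recovered from them.

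Training counts were compared with edgeR 4.0.16 (R 4.3.3) by the quasi-likelihood test, with TMM scaling and filterByExpr (minimum count 10), on the libraries compared, and p-values were adjusted by Benjamini-Hochberg over all miRNAs. Validation point 5 was compared with limma 3.58.1 on log2(value + 1) for miRNAs at 1 or more in enough libraries, a scale that understates changes of low miRNAs. Arm ratios and validation values pooled per mouse were tested with exact permutation tests (scipy 1.17.1), with adjustment over all hairpins or miRNAs with enough reads, chosen after the results were seen in place of adjustment over the members. A miRNA passed at an adjusted p under 0.05. Alternatives were DESeq2 1.42.0, raw library sizes, no filter, sex or G number as covariates, all libraries in 1 fit, the normalised table, mice left out and the mouse as a block. Month 0 and month 9 libraries of a Ctrl mouse come from 1 animal by the labels. The correlation of their deviations from the month means was -0.15 to 0.21, and was highest with the mouse's own library in 2 of 7 mice. The scripts were tested on simulated data.

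The 6 members were named in every comparison. Called paralogs with the largest change at months 1 and 3 and the miRNAs most like miR-106b-3p, miR-93-5p and miR-25-3p were named by rule, and other paralogs after their values were seen. The members, lists and rules were chosen with earlier results of these data known. With 5 to 7 mice per arm, small differences would not pass, and p-values measure the spread between mice. Shares and read totals without molecular identifiers cover counting error only.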

Additional observations from a re-analysis of the deposited data

Results flagged for a closer look

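The validation libraries outside point 5, too shallow to be compared library by library, held few reads of the cluster, and they were examined after the other results were seen. Pooled over each mouse's shallow libraries, mmu-miR-106b-3p was 130.6 ± 54.6 reads per 1000000 in 10 CM mice (SD, range 47.7 to 252) and 55.04 ± 38.2 in 6 Ctrl mice (range 20.8 to 117.7), so the arms overlapped. The difference was 75.5 (exact permutation test, two-sided, p = 0.00824) and did not pass after adjustment over the 658 miRNAs with 10 or more reads in these libraries (adjusted p = 0.730), of which 5.02% had an unadjusted p under 0.05 and 0 passed. The pools cover different times by arm, since 5 CM and 0 Ctrl libraries were of point L and 4 of 10 CM but 6 of 6 Ctrl mice had point 7. Without point L the difference was 69.2 (exact permutation p = 0.00937), and over points 1 to 3, which every mouse had, 74.3 (exact permutation p = 0.0820). With 1 mouse left out, as the arm of 1 validation mouse is in doubt, it ran from 62.01 to 88.04 (exact permutation p = 0.00240 to 0.0256). These values rest on 1 to 9 reads in each of 48 of 54 CM libraries, with none in the rest, and on 54 reads in 36 Ctrl libraries. In the same libraries mmu-miR-93-5p came to 181 ± 62.7 for the CM arm and 116.3 ± 30.5 for the Ctrl arm (exact permutation p = 0.0287, adjusted p = 0.730 over the same miRNAs). mmu-miR-106b-5p had 6 and 2 reads in these libraries, although at point 5 it had more reads than mmu-miR-106b-3p (24545 and 28291 against 12153 and 10950). The arms of the hairpin were thus represented differently in shallow and deep libraries, and the cause was not tested. Whether the shallow libraries and point 5 differ in the size of the CM difference was not tested.

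Of 120 groups of 4 to 10 libraries examined with Dixon's ratio on log2 CPM at the 95% level, 8 values in 6 libraries stood apart from their group (the libraries of 1 arm at 1 month), and chance alone is set to give about 1 in 20 groups. Highest and lowest refer to that group alone. At month 0 these were mmu-miR-106b-5p in Ctrl mouse 3340 (2417 CPM, the highest) and mmu-miR-25-5p in CM mouse 3368 (45.2 CPM, the highest). In Ctrl mouse 3349, mmu-miR-25-5p was the highest at month 2 (44.6 CPM) and month 4 (87.001 CPM), and mmu-miR-93-5p was the lowest at month 2 (3394 CPM). At month 3 mmu-miR-106b-5p was lowest in CM mouse 3334 (593 CPM). At month 10 Ctrl mouse 3335 was highest for mmu-miR-25-3p (6306 CPM) and mmu-miR-93-5p (13829 CPM).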

How the results depend on the processing

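The number of members called at month 1 was 4 and became 0 with the G number as covariate, 2 in the deposited normalised table and 1 without CM mice 3336 and 3368, while leaving out 1 mouse at a time gave 1 to 4. It was 1 without CM mouse 3368, Ctrl mouse 3339 or Ctrl mouse 3350. At month 2 the 1 call became 2 with DESeq2 and 0 with the G number, with all training libraries, with both together, with no filter, with raw library sizes, with sex as covariate and without mice 3334 and 3335, and leaving out 1 mouse gave 0 to 2. At month 3 the 2 calls became 0 with the G number, with all training libraries and with both together, and 1 with no filter. At month 5 the count was 0 and became 1 without mice 3334 and 3335, and 0 to 1 with 1 mouse left out, the 1 being without Ctrl mouse 3335. The cause of these changes was not tested. mmu-miR-106b-3p was positive in all settings at month 0 and at validation point 5. Over all miRNAs, calls ranged from 10 to 156 around 130 at month 1, 6 to 144 around 100 at month 3 and 0 to 70 around 4 at month 4, and month 0 gave 0 to 4 around 1. At month 2 they ranged from 0% to 26.6% of the miRNAs tested around 13.5%, the highest without Ctrl mouse 3349. At months 5 and 6 they ranged from 0 to 53 and from 0 to 19 around 0, where 21.6% and 6.98% of miRNAs had an unadjusted p under 0.05 by edgeR, and at validation point 5, with 54 such miRNAs by limma, each alternative gave 0.

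The month 9 against month 0 comparison of Ctrl mice was repeated with the mouse as a block. With DESeq2, with recovered reads and without Ctrl mouse 3339 or 3349, 3 members were called in place of 2. Pairing left 2 members called and 150 of all miRNAs instead of 173, with mmu-miR-106b-3p at 0.84 and mmu-miR-93-3p at 0.59. Shifts of the arm ratios (0.81, 0.52 and 0.77) are the same with and without the block by construction. The block changed no call of a member.

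At months 1 to 6, 9 of 36 member values turned direction in at least 1 alternative, 6 of them under 0.2 in size, and miR-106b-3p was not among them. Among these, mmu-miR-25-3p at month 3 ran from -0.11 to 0.37 and mmu-miR-106b-5p at month 1 from -0.24 to 0.19. Of the values tested, those that turned direction at month 0 were mmu-miR-106b-5p (-0.0060 with all libraries and the G number, -0.034 to 0.22 with 1 mouse left out), mmu-miR-93-3p (0.049 with the G number, 0.0073 with raw library sizes, 0.013 with sex, -0.12 to 0.016 with 1 mouse left out) and mmu-miR-25-3p (-0.28 to 0.044 with 1 mouse left out). At month 3 mmu-miR-93-3p was -0.63 in the deposited normalised table and -0.58 in the reads recovered from it, a setting added after seeing the data, as were leaving out mice 3336 and 3368 and the values within G numbers. At validation point 5 with recovered reads mmu-miR-106b-5p was 0.0020 and mmu-miR-25-3p 0.098, the latter 0.011 with sex. With 1 mouse left out there, mmu-miR-106b-5p ran from -0.16 to 0.12, mmu-miR-25-3p from -0.22 to 0.20, mmu-miR-25-5p from -0.46 to 0.11, mmu-miR-93-5p from -0.0062 to 0.33 and the arm ratio of miR-93 from -0.092 to 0.091. For Ctrl month 9 against 0, mmu-miR-106b-5p was -0.049 with DESeq2, -0.027 in the normalised table, -0.040 in recovered reads and -0.11 without mice 3334 and 3335 (-0.11 to 0.13 with 1 mouse left out), and mmu-miR-25-3p was 0.062 with the mouse block and 0.12 with raw library sizes (-0.19 to 0.15). mmu-miR-93-5p was -0.061 in the normalised table, -0.058 in recovered reads and -0.011 without mice 3334 and 3335 (-0.011 to 0.098). Depth limited the validation cohort to 1 point.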
